A study of Drosophila melanogaster with 5 samples.

Results

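Merging the peaks of 5 deposited lists that shared at least 1 bp gave 2263 regions called for the RNA helicase Maleless (MLE) in female Drosophila melanogaster embryos, and 332 of these (14.7%) lay on X chromosome sequence that the dm6 assembly assigns to X without placing it on the arm. They were taken by contig name alone, as all regions on contigs named chrX_ followed by an identifier, and comprised 451 of 4422 peaks on 330 contigs. MLE was profiled by CUT&RUN, in which a rat antibody against MLE tethers a DNA-cutting nuclease to digitonin-permeabilised chromatin and the fragments it frees are read. Control embryos had mothers in which the germline driver MTD-GAL4 expressed a GFP hairpin (MTD-GAL4>GFPRNAi), with 2 libraries at 0-2 h, before the maternal-to-zygotic transition, and 2 at 2-4 h, after it. A single further library came from 0-2 h embryos of MTD-GAL4>CLAMPRNAi mothers (line UAS-CLAMPRNAi[val22]), here called clampRNAi, whose maternal supply of the GA-repeat binding zinc finger protein CLAMP was targeted. In every cross a meiotic drive system in the father (a +; SD72/CyO stock and an SPSD/CyO stock) left sperm with the X only, so that all 5 libraries came from daughters. Embryos of several timed egg-layings from more than one batch of crosses went into the libraries, and whole embryos mix all cell types. The depletion of CLAMP was not measured in these lists.

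In male flies MLE remodels the roX RNAs so that the dosage compensation complex can assemble and spread along the single X. Females lack a working complex because Sxl blocks the production of its MSL2 subunit, but they do make MLE, which also acts in splicing and RNA editing. Unplaced contigs are mostly short pieces of heterochromatin, rich in transposons and satellite repeats, that could not be ordered on the assembled arm. Short reads from repeated sequence can align equally well to several copies, and how such reads were treated is not given in the sources used here. The assignment to X is that of the assembly and was not checked here, and the gene table used with the lists names such a contig as the location of 0 of its 17872 genes, so no region was assigned to a gene, exon or intron.

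The lists differed in length and kind, and one stood apart. Control lists had 723 and 1247 peaks at 0-2 h, 370 and 1589 at 2-4 h, and the clampRNAi list had 493. The median peak was 82 to 110 bp wide in the other control lists and 81 bp after clampRNAi, but 2190 bp in 2-4 h replicate 2. Sequencing depth is unknown, so the authors' signal was used only within a list, as the percentile of a peak's total signal (its summed coverage) among all peaks of that list. The stage differences and the shares of regions called are therefore also given without that library. The 95% intervals reflect counting error alone, not the spread between libraries.

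Most peaks on unplaced X sequence, 329 of 451, came from the single library 2-4 h replicate 2. The 0-2 h controls had 48 (replicate 1) and 56 (replicate 2), 2-4 h replicate 1 had 6 and the clampRNAi list 12. These were 6.64% (Clopper-Pearson 95% interval 4.94% to 8.71%) and 4.49% (3.41% to 5.79%) of the peaks in the 0-2 h lists. The shares were 1.62% (0.597% to 3.50%) and 20.7% (18.7% to 22.8%) in the 2-4 h lists, and 2.43% (1.26% to 4.21%) after clampRNAi. The 2-4 h libraries were thus the lowest and the highest of the 5, with both 0-2 h libraries between them. Of all peaks on X sequence, arm and contigs together, the contigs held 15.3% and 10.4% at 0-2 h, 3.53% and 48.9% at 2-4 h and 5.48% after clampRNAi. Taking only the 370 peaks of greatest total signal from each list, the contigs held 13 and 4 peaks at 0-2 h, 6 and 99 at 2-4 h and 6 after clampRNAi. At equal length 2-4 h replicate 2 was again the highest, but 2-4 h replicate 1 was no longer the lowest.

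**Figure D1:**
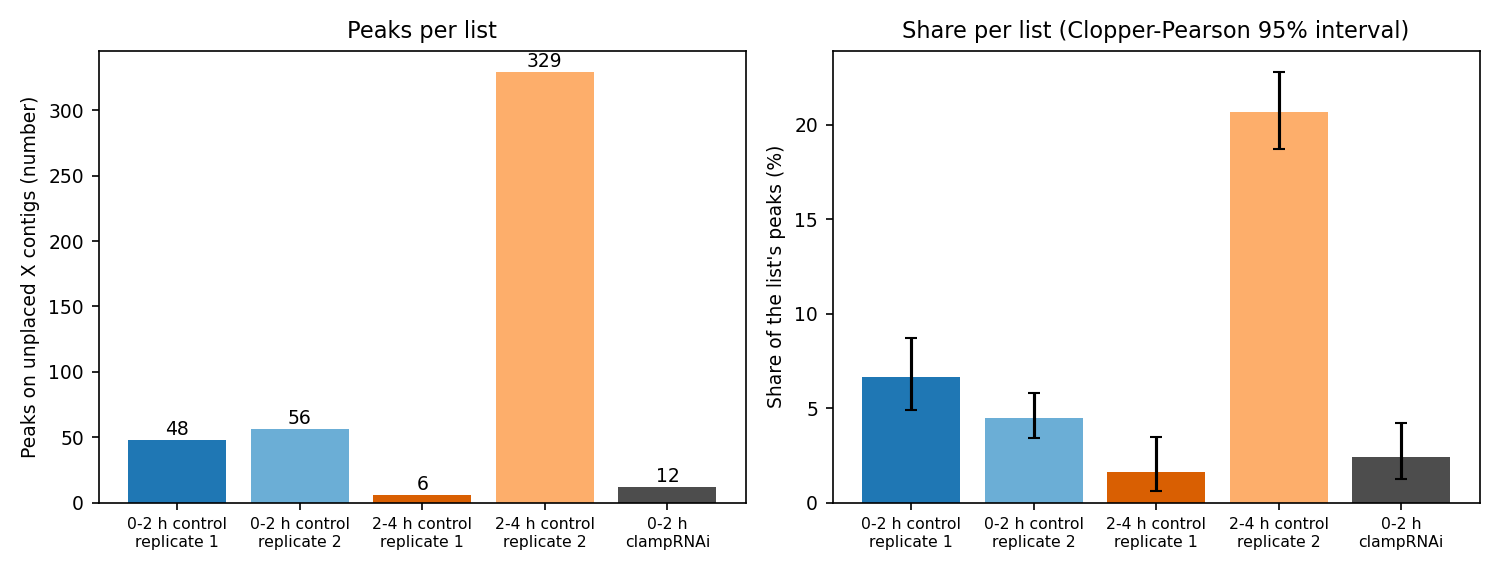
Number of peaks on unplaced X contigs in each list (left) and the share of the list's peaks that they made up in percent (right), where error bars are Clopper-Pearson 95% intervals over peaks. The 2-4 h replicate 2 bar reaches 329 peaks and 20.7%, and the 2-4 h replicate 1 bar 6 peaks and 1.62%.

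The first comparison asked whether MLE on unplaced X sequence differed between embryos collected ahead of the maternal-to-zygotic transition and those collected after it. The share of called peaks averaged 5.56% ± 1.52 (SD, n = 2) in the early and 11.2% ± 13.5 (SD, n = 2) in the late controls, a difference of 5.60 percentage points (exact permutation test over libraries, two-sided p = 1). With 2 against 2 libraries this test cannot give a p below 0.333. The spread between the 2-4 h libraries exceeded the difference between stages, and the direction was set by 2-4 h replicate 2: without it the share was lower at 2-4 h, with a difference of -3.94 points, and without 2-4 h replicate 1 it was 15.1 points higher. The share of covered length on these contigs was 13.8% ± 3.09 (SD, n = 2) early and 9.57% ± 7.57 (SD, n = 2) late (exact permutation p = 0.667). Without 2-4 h replicate 1 that difference of -4.25 points became 1.10, and it was 7.88 with lists of equal length and 9.85 with only the peaks above the median of each list. The difference in the share of peaks was 0.327 points with peaks of at least 200 bp only. Neither difference between stages was larger than the spread between the 2-4 h libraries.

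Region by region, 329 of the 332 regions were called in 2-4 h replicate 2, or 99.1%, where that list called 70.2% of all merged regions. The other lists called few of them. The 0-2 h controls called 47 regions in replicate 1 (14.2%, against 30.8% of all merged regions) and 55 in replicate 2 (16.6% against 54.0%). For 2-4 h replicate 1 it was 6 (1.81% against 15.7%), and after clampRNAi 12 (3.61% against 21.0%). Because a region enters the set by being called in any list, the broad list of 2-4 h replicate 2 also fixed most of the membership, and merging without it left 80 regions of 1355 in all. Of these 80, replicate 1 of the 0-2 h controls called 58.75% (Clopper-Pearson interval 47.2% to 69.6%). That interval included the 52.4% that replicate 1 called of all regions merged this way, so the shares were not told apart. For 0-2 h replicate 2 the share was 70.0% (92.0% of all), for 2-4 h replicate 1 it was 7.5% (26.6% of all), and for clampRNAi 15.0% (35.6% of all). The 254 regions called in 2-4 h replicate 2 alone made up 76.5% of the unplaced X regions, against 41.5% of all merged regions.

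**Figure D2:**
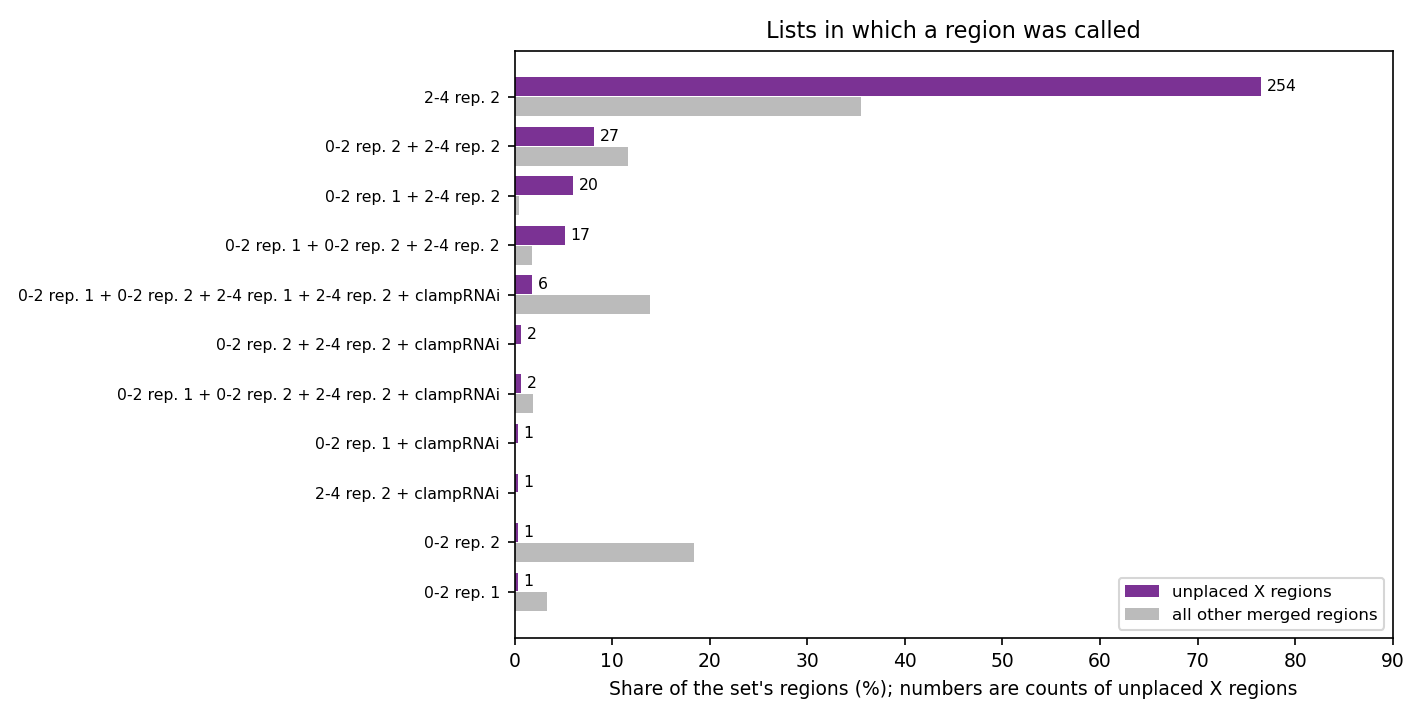
Share of regions in percent (horizontal axis) with each combination of lists that called them, for the unplaced X regions (purple, with their counts) and all other merged regions (grey). The bar for 2-4 h replicate 2 alone holds 254 unplaced X regions, and 6 regions were called in all 5 lists.

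The 0-2 h controls shared 25 of the 77 unplaced X regions that either called. The 25 were 7.53% of the unplaced X regions, against 26.6% of all merged regions, and without 2-4 h replicate 2 the shares were 30.0% and 44.9%. These were 53.2% of the 47 regions of replicate 1 and 45.5% of the 55 regions of replicate 2, where over all merged regions the shares were 86.2% and 49.3%. In 24 of the 25 the peaks of both libraries overlapped each other. The exception, named after its values were seen, was chrX_DS484012v1_random, where replicate 1 had its peak at 2537 to 3191 and replicate 2 at 15 to 889, joined only by the 2-4 h replicate 2 peak at 17 to 3212. All 25 were called in 2-4 h replicate 2 and 6 (24.0%) in 2-4 h replicate 1, where over all 602 merged regions of both 0-2 h controls the shares were 60.6% and 57.6%. On contigs not assigned to any chromosome, 91.7% of 48 such regions were called in 2-4 h replicate 2. Regions of both 0-2 h controls that neither 2-4 h control called numbered 0, against 7.29% of all merged regions. Without 2-4 h replicate 2 that count was 18 of 80, and the matching share of all regions was not computed. The opposite set, in both 2-4 h controls but in neither 0-2 h control, also held 0 regions, as it did over all 2263 merged regions (0%). All 6 regions of 2-4 h replicate 1 were called in both 0-2 h controls, as were 347 of its 356 regions over the whole series. Without 2-4 h replicate 1, where replicate 2 stands alone for the stage, the count of the opposite set was 255 of 332. Of these, 254 were called in 2-4 h replicate 2 alone, or 76.5% of the unplaced X regions against 41.5% of all merged regions.

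Peaks on unplaced X sequence were broad in every list. Their median width was 1003.5 bp and 1201.5 bp at 0-2 h, 608.5 bp and 1776 bp at 2-4 h and 663.5 bp after clampRNAi, against 92 bp and 102 bp, 81 bp and 2518 bp, and 80 bp for all other peaks of the same lists. Thus they were wider than the rest in 4 lists and narrower in 2-4 h replicate 2. Only 1 of 56 peaks in 0-2 h replicate 2 and 1 of 12 after clampRNAi was under 200 bp, and 0 in the other 3 lists. Among all other peaks 64.3% and 63.3% were under 200 bp at 0-2 h, 74.5% and 9.44% at 2-4 h and 71.9% after clampRNAi. Between stages the median width was 1102.5 bp ± 140 (SD, n = 2) early and 1192 bp ± 826 (SD, n = 2) late (exact permutation p = 1). That difference of 89.75 bp became -494 bp without 2-4 h replicate 2 and -9.25 bp without 0-2 h replicate 1.

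The contigs were short: the largest coordinate reached by any peak, which is a lower bound on contig length, had a median of 1810.5 over the 330 contigs, and 7 contigs reached past 5 kb. Of the 329 peaks of 2-4 h replicate 2, 283 began within 100 bp of the contig's first base, 79 of them at that base. A region called in 1 list is that list's peak, so coverage was compared only in regions called in at least 2 lists. There the 2-4 h replicate 2 peak covered over 90% of the merged region in 74 of 75 regions. This follows largely from its being the widest peak, since a merged region spans all its peaks. The shares of the other lists are thus mostly relative to that peak. The median share of the region covered was 59.0% and 69.4% in the 0-2 h controls, 47.1% in 2-4 h replicate 1 and 46.7% after clampRNAi. At the same region the 2-4 h replicate 2 peak was wider than that of 0-2 h replicate 1 in 45 of 45 regions, with a median ratio of 1.78. It was wider than that of 0-2 h replicate 2 in 51 of 54 (median ratio 1.45), than that of 2-4 h replicate 1 in 6 of 6 (2.12) and than that of clampRNAi in 11 of 11 (2.31).

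**Figure D3:**
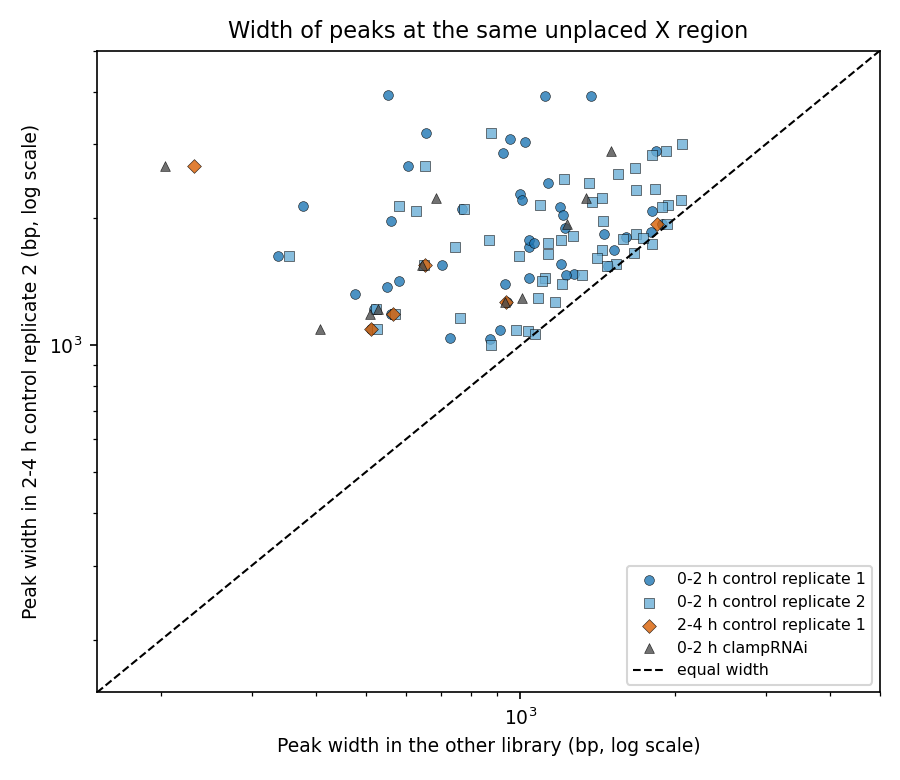
Width of the peak in 2-4 h replicate 2 (vertical axis, bp, log scale) against its width at the same unplaced X region in each other library (horizontal axis, bp, log scale), with 1 point for each region and library. All but 3 points, which belong to 0-2 h replicate 2, lie above the dashed line of equal width.

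Within their lists these peaks ranked low at 0-2 h and after clampRNAi. The median percentile of total signal was 26.0 and 21.6 in replicates 1 and 2 of the 0-2 h controls, where all other peaks of those lists had medians of 52.0 and 51.8. It was 26.5 after clampRNAi against 50.5 for the other peaks, 51.4 in 2-4 h replicate 1 against 50.1, and 67.0 in 2-4 h replicate 2 against 43.1. Total signal sums coverage over the width of a peak. The median signal per covered base was 14.4 and 7.0 at 0-2 h, against 225 and 161 for all other peaks of those lists. It was 37.2 against 304 in 2-4 h replicate 1 and 20.5 against 164 after clampRNAi. Only in 2-4 h replicate 2 was it above that of the other peaks, at 30.9 against 10.4. A percentile above 90 was reached by 11 of 329 of these peaks in 2-4 h replicate 2 (3.34%) and by 0 in each of the other 4 lists. Among all other peaks of 2-4 h replicate 2 the share was 11.7%, so the higher median there did not extend to the top of the list. Since the lists differ in length, percentiles were not compared between stages.

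**Figure D4:**
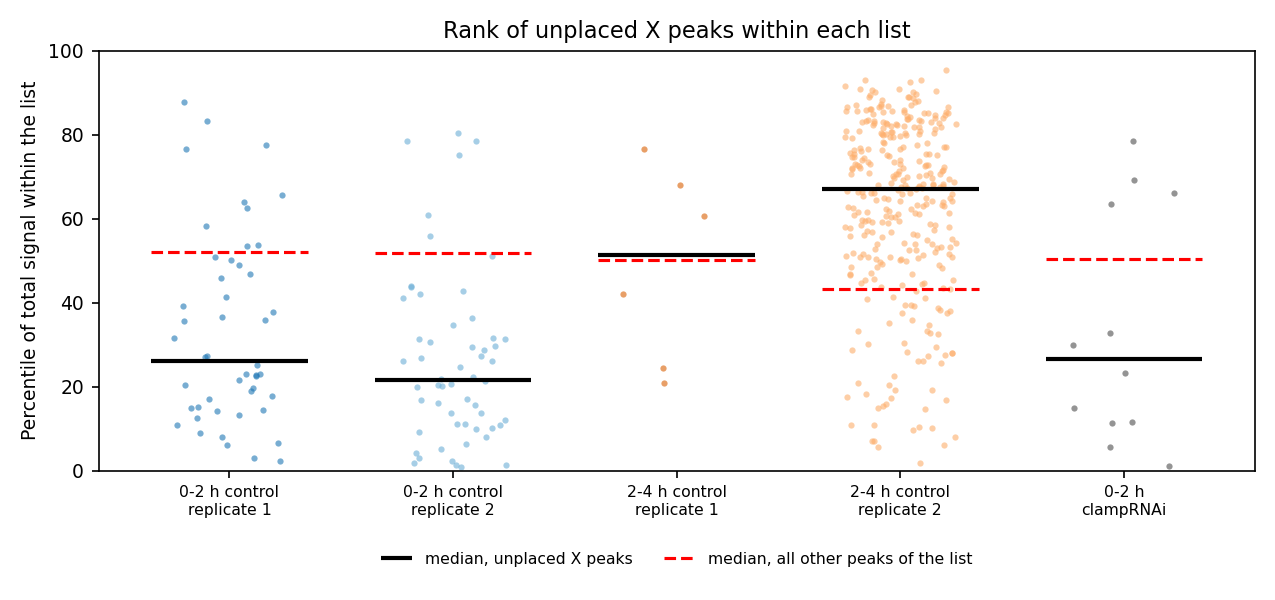
Percentile of total signal within its own list (vertical axis, 0 to 100) for each peak on unplaced X contigs, by library, with the median of these peaks (black line) and of all other peaks of the list (red dashed line). The black line lies below the red one at 0-2 h and after clampRNAi and above it in 2-4 h replicate 2, at 67.0 against 43.1.

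The 6 regions called in all 5 lists were 1.81% of the unplaced X regions, against 12.1% of all merged regions, and without 2-4 h replicate 2 the other 4 lists shared 7.5% of 80 regions, against 25.8% of all. They were the whole unplaced X content of 2-4 h replicate 1. By mean percentile over the 5 lists the first was on chrX_DS484697v1_random, at 78.6, next to 78.4 on chrX_DS484519v1_random. There the 0-2 h peaks spanned 641 to 1344 (replicate 1) and 688 to 1337 (replicate 2), the 2-4 h peaks 690 to 1342 and 12 to 1564, and the clampRNAi peak 698 to 1340. The authors' maximum signal was 1171 and 989 at 0-2 h, 774 and 467 at 2-4 h and 547 after clampRNAi, each on a scale of unknown depth, and in all 5 lists the midpoint of the maximum fell between 730 and 733.5. Its percentile was 87.7 and 80.5 at 0-2 h, 76.5 and 69.8 at 2-4 h and 78.5 after clampRNAi. It held the highest maximum signal of any unplaced X peak in each of the 5 lists.

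The region on chrX_DS484519v1_random was broad throughout, at 1888 bp and 1930 bp in the 0-2 h controls, 1847 bp and 1945 bp at 2-4 h and 1231 bp after clampRNAi. Its percentiles were 83.3 and 78.6 at 0-2 h, 68.1 and 93.1 at 2-4 h and 69.2 after clampRNAi. The maxima of the 5 lists lay within 14.5 bp of each other. On chrX_DS485044v1_random each peak began at the first base of the contig and ended at 940 and 1165 at 0-2 h, 939 and 1270 at 2-4 h and 934 after clampRNAi. Its maximum lay between 906 and 912.5 in 4 lists, and at 17 in 0-2 h replicate 2. Percentiles there were 77.5 and 75.2 at 0-2 h, 60.5 and 63.9 at 2-4 h and 66.1 after clampRNAi.

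The region on chrX_DS484057v1_random showed the largest difference in width among the 6. Its peak was 604 bp and 652 bp at 0-2 h, 232 bp and 2664 bp at 2-4 h and 203 bp after clampRNAi, around a maximum placed within 17.5 bp in the 5 lists. Its percentiles were 76.6 and 56.0 at 0-2 h, 42.2 and 82.2 at 2-4 h and 63.5 after clampRNAi. The last regions of the 6 ranked lower, and each had 1 list whose maximum lay apart from the others. On chrX_DS485599v1_random the peak ended at 540 or 541 in every list but 2-4 h replicate 2, where it ran on to 1096 and its maximum lay 443.5 bp from the farthest of the others. On chrX_DS485225v1_random the peak began between 629 and 632 in those same 4 lists, and at 7 in 2-4 h replicate 2, and its maximum lay between 1021 and 1043 in the controls and at 716 after clampRNAi. Their percentiles ran from 24.3 to 81.7 and from 20.8 to 69.2, highest in 2-4 h replicate 2 in both cases.

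**Figure D5:**
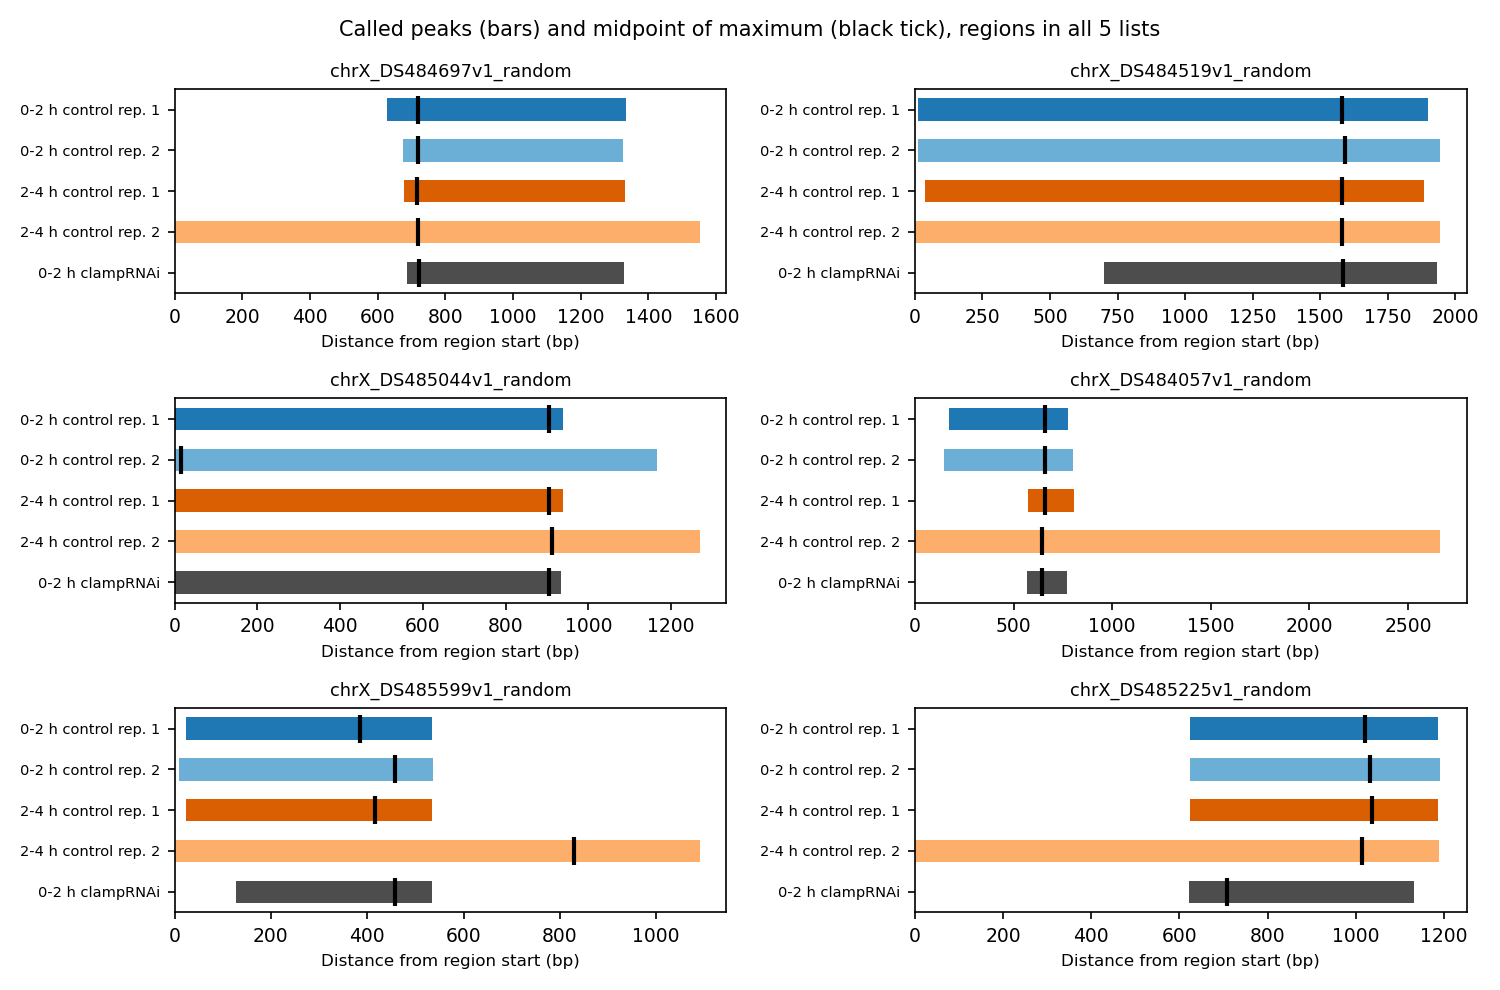
Extent of the called peak (bars) and midpoint of its maximum signal (black tick) in each library for the 6 unplaced X regions called in all 5 lists, as distance in bp from the start of the merged region (horizontal axis). The bar of 2-4 h replicate 2 is the longest in each panel, from 1091 bp to 2664 bp.

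Position of the maximum was less stable over the wider set. For the 25 regions of both 0-2 h controls the maxima lay a median of 73 bp apart, and 14 of the 25 pairs (56.0%) lay within 100 bp, where over all 602 merged regions of both controls the median was 2 bp and 94.4% lay within 100 bp. Between 0-2 h replicate 1 and 2-4 h replicate 2 it was 95 bp over 45 regions, against 3 bp over all 393 merged regions they shared. Peaks were also wider here than elsewhere, as given above, and the part of width in these distances was not tested. In the 6 regions called in all lists the maxima of 2-4 h replicate 1 lay a median of 2.5 bp from those of 0-2 h replicate 1, 9.25 bp from 0-2 h replicate 2, 11.75 bp from 2-4 h replicate 2 and 10.5 bp from clampRNAi.

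The second comparison set the early control libraries against embryos whose mothers carried the CLAMP hairpin. Of the 25 regions of both 0-2 h controls, 8 were called after clampRNAi, 32.0% (Clopper-Pearson 95% interval 14.9% to 53.5%), against 76.6% of all 602 merged regions called in both. On contigs not assigned to any chromosome it was 29 of 48 regions of both 0-2 h controls, 60.4% (45.3% to 74.2%). Without 2-4 h replicate 2 in the merging the unplaced X share was 33.3% of 24, and the matching share of all regions was not computed. Of all 55 regions of 0-2 h replicate 2 the share called was 18.2%, against 38.5% of the 1221 merged regions of that list. For the 47 regions of replicate 1 it was 19.1%, against 66.5% of 698. The control library 2-4 h replicate 1, with maternal CLAMP and a list of 370 peaks against 493, called 24.0% of the 25 (9.36% to 45.1%), against 57.6% of all 602. The other control of that stage, 2-4 h replicate 2 with 1589 peaks, called 100% of the 25 (86.3% to 100%), against 60.6% of all 602. With a single clampRNAi library the genotypes could not be tested against each other, and the shares depend on list length. With every list kept to 370 peaks, the 0-2 h controls had 4 regions in common, of which 75% were called after clampRNAi. That share rests on 4 regions only, and the share of all merged regions was not computed at that length.

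The 8 regions called after clampRNAi ranked higher in the control lists than the 17 that were not. In replicate 1 the median percentile was 65.1 for the 8 and 23.1 for the 17, and in replicate 2 it was 58.5 and 22.2. Over all merged regions of both controls the medians were 66.1 and 69.8 for those called and 22.1 and 43.0 for those not called. In 2-4 h replicate 2 the order was the other way, with medians of 81.0 for the 8 and 88.3 for the 17, as it was over all merged regions (64.9 and 85.5). Among the 17, the highest in mean percentile, named after its values were seen, lay on chrX_DS484701v1_random. It was called from base 1 to 338 in 0-2 h replicate 1, to 354 in replicate 2 and to 1625 in 2-4 h replicate 2, at percentiles of 62.7, 78.4 and 87.9.

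Besides the 6 regions of all lists, the clampRNAi list held 6 further unplaced X regions. Those on chrX_DS484101v1_random and chrX_DS485111v1_random were also called in both 0-2 h controls and 2-4 h replicate 2, at clampRNAi percentiles of 23.1 and 15.0. On chrX_DS485111v1_random the clampRNAi peak at 709 to 1237 had nearly the extent of those at 718 to 1235 and 714 to 1236 in the 0-2 h controls. Those on chrX_DS484371v1_random and chrX_DS484995v1_random were called in 0-2 h replicate 2 and 2-4 h replicate 2, and ranked at 11.7 and 1.01 after clampRNAi. The region on chrX_DS484364v1_random (1315 to 1998 after clampRNAi, percentile 11.4) was called in 2-4 h replicate 2 and in neither 0-2 h control. The last, on chrX_DS485691v1_random, was called in 0-2 h replicate 1 (110 to 485, percentile 53.8) and after clampRNAi (110 to 297, percentile 5.68). All 6 were thus at or below a percentile of 23.1 in the clampRNAi list. A 0-2 h control also called 11 of the 12 clampRNAi regions, as it did 473 of the 476 over the whole series.

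The regions of 2-4 h replicate 2 alone included the widest ones. The widest of all lay on chrX_CP007103v1_random (11671 to 33320, 21650 bp), with a percentile of 95.3 in that list, also the highest of any unplaced X region there. The next widest lay on chrX_DS483745v1_random (1784 to 9352, percentile 69.9), chrX_DS483784v1_random (127 to 5745, percentile 72.8) and chrX_DS483818v1_random (1 to 4909, percentile 84.1). The 254 regions had a median width of 1750.5 bp and a median percentile of 61.6 in that list, where the 74 also called in a 0-2 h control had 1805 bp and 82.3. Over all merged regions of that list the medians were 35.4 for those it alone called and 73.4 for those also called at 0-2 h, so the order of the ranks was the same. After chrX_CP007103v1_random, the highest ranked regions of this list alone were on chrX_DS484555v1_random (1 to 1914, percentile 90.4), chrX_DS484215v1_random (7 to 2587, percentile 89.0) and chrX_DS483909v1_random (128 to 3903, percentile 86.8).

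Almost every contig carried a single region. On 328 of the 330 contigs there was 1 merged region, and its width had a median of 1772.5 bp over all 332. The contigs with 2 regions were chrX_CP007104v1_random, both called in 2-4 h replicate 2 alone (2020 to 3122 and 3862 to 6144), and chrX_DS483648v1_random. On the latter, 10130 to 13028 was called in 2-4 h replicate 2, and 13478 to 13714 in 0-2 h replicate 1 at a percentile of 39.1. That second region is 1 of only 3 not called in 2-4 h replicate 2, named here after their values were seen. The others were the one on chrX_DS485691v1_random and one on chrX_DS484953v1_random, called at 528 to 1100 in 0-2 h replicate 2 with a percentile of 29.4.

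The sequence most like it is that of 139 contigs not assigned to any chromosome, which held 153 merged regions. Those were also broad, with median peak widths of 646 bp and 664 bp at 0-2 h, 671 bp and 1461 bp at 2-4 h and 536 bp after clampRNAi. Their share of the peaks in each list was similar across the 5 libraries, at 7.33%, 6.82%, 7.57%, 8.56% and 6.90% in the order used above. That of the unplaced X contigs ran from 1.62% to 20.7%. This contrast held for peak counts and not for covered length. Of covered length the unassigned contigs held 35.4% in 2-4 h replicate 1 and 7.08% in 2-4 h replicate 2, their highest and lowest shares. The unplaced X contigs held 4.22% and 14.9% in those lists, and their share of covered length varied less over the 5 libraries. Of the 153 regions 88.9% were called in 2-4 h replicate 2 and 41.2% in that list alone, against 99.1% and 76.5% on unplaced X. On the X arm 55.8% of 616 regions were called in 2-4 h replicate 2 and 21.6% in that list alone. Ranks also differed, with median percentiles on the unassigned contigs of 67.6 and 56.9 at 0-2 h against 26.0 and 21.6 on unplaced X. In 2-4 h replicate 2 the medians were 60.2 and 67.0, with a median signal per covered base of 28.7 and 30.9, and 22.3 on the X arm. These differences between kinds of sequence were not tested, since each rests on the same few libraries.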

How the data were processed

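Per the submitters' processing notes, the build was dm6 and the tools, listed with no roles, were SEACR 1.3, Bowtie2 2.4.4, Trimmomatic 0.40, bcl2fastq 2.17 and deepTools. Each of the 5 deposited lists gives the authors' total and maximum signal (coverage) per peak, in whole numbers. The lists carry the stringent label of the peak caller. Control track, numeric threshold, treatment of multiply aligned reads and use of the yeast spike-in: not given in the sources used here. Nothing ties libraries to crosses, so p-values measure only the spread between these libraries.

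Peaks sharing at least 1 bp were merged over all contigs with Python 3.11.15, pandas 2.3.3 and SciPy 1.17.1. A percentile is the average rank of a peak's total signal in its list. Where a list had several peaks in a region, the one of highest total signal was used. Coordinates are 1-based on dm6. Stages were compared by exact permutation of libraries. Merging and tests were tested on simulated data. Named regions followed a rule: the 6 contigs with most regions, the 6 regions in most lists, the 4 widest, the 4 highest ranked of 2-4 h replicate 2 alone and all clampRNAi regions. Members, tests and rule were chosen with earlier results of these data known. Planned sequence analyses were not run.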

Additional observations from a re-analysis of the deposited data

How the results depend on the processing

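With each list cut to its 370 peaks of highest total signal, the difference between stages in the share of covered length turned from -4.25 to 7.88 points, the merged regions fell from 332 to 103 and those of both 0-2 h controls from 25 to 4. The regions of 2-4 h replicate 2 alone were then 88, those of both 2-4 h controls and neither 0-2 h control 1, and the share called after clampRNAi 75%. With the upper part of each list by total signal (above the median), the same values were 9.85 points, 6 regions of both 0-2 h controls and 66.7% called after clampRNAi. The shares of 75% and 66.7% rest on those 4 and 6 regions, and shares over all merged regions were not computed at these settings. With reciprocal overlap of at least 50%, the regions of both 0-2 h controls and neither 2-4 h control numbered 5. Fewer peaks enter under each of the first 2 settings, and the cause of the turned sign was not tested. Leaving out each control library in turn gave differences between stages of -3.94 to 15.1 points in the share of peaks, -9.60 to 1.10 points in the share of covered length and -494 to 673.5 bp in median width. It gave 80 to 332 merged regions and 24 to 55 regions called in every 0-2 h control that was kept. The 55 are all regions of 0-2 h replicate 2, kept without replicate 1. Regions of every kept 2-4 h control and no kept 0-2 h control numbered 0 to 255. Those of every kept 0-2 h control and no kept 2-4 h control numbered 0 to 18. Calls after clampRNAi did not enter these 2 sets, and their matching shares of all regions were not computed. The share of the kept 0-2 h controls' regions called after clampRNAi ran from 18.2% (of the 55 regions of 0-2 h replicate 2) to 33.3%. Merging without 2-4 h replicate 2 raised the share of regions called in each other list, a setting chosen after seeing the data. Merging peaks within 500 bp, a minimum width of 200 bp and, chosen after seeing the data, each contig as 1 region kept every count within 1.5 times, but with that minimum width the stage difference in the share of peaks went from 5.60 to 0.327 points. With the replicate number as a block the differences were 5.60 points, -4.25 points and 89.75 bp (exact paired permutation p = 1 for each, smallest possible 0.5), with opposite directions in the 2 pairs. Deviations of equal replicate numbers had a correlation of -0.0901 over all merged regions, so the numbers were not treated as pairs. Depth is unknown, and a region not called may lie just under a list's threshold.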
